A study of Mus musculus with 48 samples.

Results

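SIN3A occupancy was compared between Zfp131 knockout and wildtype mouse embryonic stem cells by ChIP-seq, the sequencing of DNA that is pulled down with a protein by an antibody against it. Of 48 libraries in the series, 4 belong to this comparison, 2 of each genotype. Wildtype cells were the line Ainv15(iCre). Knockout cells were the line Ainv15(iZfp131-HA Zfp131KO), which lacks Zfp131 and carries a copy of it, tagged with the HA epitope, that doxycycline switches on. Both were grown for 3 days without doxycycline, with LIF and without the 2 inhibitors that hold embryonic stem cells in the naive state (-2i+LIF). Values for ZBTB11 binding and for SIN3A in Zbtb11KO come from another line (iZbtb11-HA Zbtb11KO), which lacks Zbtb11 and carries an HA-tagged copy. SIN3A was measured in it without doxycycline in -2i+LIF, and ZBTB11 binding with doxycycline and both inhibitors. Each genotype is 1 line, so a difference between the genotypes cannot be told apart from a difference between these lines. The labels do not say whether the 2 libraries of a genotype came from separate cultures, so p-values measure only the spread between these libraries, which may be technical.

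The members are the regions of the authors' SIN3A table that hold at least 1 wildtype SIN3A event, an event being a position where reads pile up above the control. Of 68634 regions, 68399 did so, and the other 235 all held an event of the CHD4 list for Zfp131KO (SIN3A was higher at 52 of these and lower at 1). The deposited SIN3A event list for Zfp131KO is identical to that CHD4 list and was not used. The table therefore holds no region chosen by a SIN3A event in the knockout, and a SIN3A site that exists only in the knockout can appear in it only where CHD4 had an event there. The 295 members on chromosome 10 from 58 to 68 Mb are described apart, which leaves 68104.

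SIN3A is a large scaffold protein. It binds the histone deacetylases HDAC1 and HDAC2 and the histone-binding proteins RBBP4 and RBBP7, and sequence-specific factors such as MXD1, E2F6 and REST bring it to DNA. It is known as a corepressor that lowers histone acetylation, and it is also found at active promoters with H3K4me3; mouse embryonic stem cells need it to proliferate. ZFP131 and ZBTB11 are zinc finger proteins with a BTB domain, a fold through which proteins pair. The series addresses how ZFP131 and ZBTB11 act at genes of differentiation in pluripotent cells. In the marks read here, H3K4me3 lies at promoters, H3K27ac at active promoters and enhancers, and H3K27me3 is left by the polycomb complex PRC2 at repressed genes.

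Promoters where ZFP131 was strongly bound lost SIN3A more often than others did, and many of them share 1 short sequence. The next lines show 5 such promoters with SIN3A lower in Zfp131KO, from RefSeq (GRCm38.p6), 5′ to 3′ on the strand of the gene, from 130 bases before the annotated start to 29 bases after it. Capitals mark GATGACG or its reverse complement CGTCATC.
Rmdn3 (chr2:119157005-119157164, minus strand): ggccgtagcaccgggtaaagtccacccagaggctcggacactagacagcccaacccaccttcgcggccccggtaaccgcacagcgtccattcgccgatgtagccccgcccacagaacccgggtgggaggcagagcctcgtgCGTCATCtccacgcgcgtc
3110082I17Rik (chr5:139460505-139460664, minus strand): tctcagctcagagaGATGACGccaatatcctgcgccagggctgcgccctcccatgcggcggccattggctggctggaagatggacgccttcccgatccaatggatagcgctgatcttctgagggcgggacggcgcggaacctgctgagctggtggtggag
Cmss1 (chr16:57606838-57606997, minus strand): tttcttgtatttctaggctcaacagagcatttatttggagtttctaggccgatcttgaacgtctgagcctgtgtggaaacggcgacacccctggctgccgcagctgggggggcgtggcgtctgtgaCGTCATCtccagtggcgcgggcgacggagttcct
Trmt61a (chr12:111677975-111678134, plus strand): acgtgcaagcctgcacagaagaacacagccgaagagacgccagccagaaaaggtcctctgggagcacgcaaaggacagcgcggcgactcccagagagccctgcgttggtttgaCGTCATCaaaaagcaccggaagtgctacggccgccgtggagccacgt
Trmt5 (chr12:73286682-73286841, minus strand): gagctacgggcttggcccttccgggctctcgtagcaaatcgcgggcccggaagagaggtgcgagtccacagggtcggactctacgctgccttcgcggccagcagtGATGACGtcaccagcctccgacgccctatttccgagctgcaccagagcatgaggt
Next come 3 promoters that also stood among those with the most ZFP131 reads and hold the same letters, but where SIN3A did not pass the test.
Zgrf1 (chr3:127553359-127553518, plus strand): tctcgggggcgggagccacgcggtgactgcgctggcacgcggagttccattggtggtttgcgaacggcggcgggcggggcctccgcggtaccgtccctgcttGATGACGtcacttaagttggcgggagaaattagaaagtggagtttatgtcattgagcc
Ppp4r3a (chr12:101083673-101083832, minus strand): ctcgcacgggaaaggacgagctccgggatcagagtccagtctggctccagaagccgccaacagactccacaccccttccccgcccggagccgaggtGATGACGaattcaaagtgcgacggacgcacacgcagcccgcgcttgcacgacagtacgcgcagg
Nup133 (chr8:123949236-123949395, minus strand): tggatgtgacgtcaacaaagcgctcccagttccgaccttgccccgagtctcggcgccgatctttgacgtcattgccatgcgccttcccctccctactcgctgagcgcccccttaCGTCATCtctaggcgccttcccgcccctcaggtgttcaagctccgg
ZFP131 reads come from the authors' HA events for cells grown 3 days with doxycycline in 2i+LIF, so binding was measured under another condition than SIN3A. GATGACG was picked after comparing promoters with and without ZFP131 events in these data, so its share among bound promoters is a description. It stood on either strand in 124 of 330 genes (37.6%) with at least 1000 ZFP131 reads within 500 bp of their SIN3A region. That share was 1.77% of 8595 genes with no ZFP131 event and 2.38% of all 21263 promoter windows of protein-coding genes of the same length (250 bases before to 50 after the start). The letters overlap the cAMP response element TGACGTCA, which was in 22.7% of the 330 genes and in 2.23% of all windows. In the 124 genes the strongest ZFP131 event lay a median of 32 bp from the nearest match. The match was sought only in the promoter window and the event only within 500 bp of the SIN3A region, which favours short distances. No distance was worked out for other letters. Among genes with at least 1000 ZFP131 reads, SIN3A was lower at 20 of 124 with GATGACG (16.1%) and at 22 of 206 without it (10.7%). Of the 227 genes with the letters but fewer ZFP131 reads or none, it was lower at 2 (0.881%). The GC box GGGCGG, or its complement, was in 16 of the 42 strongly bound promoters that lost SIN3A (38.1%), against 63.5% of the other 288 strongly bound ones and 69.6% of all 10435 promoter genes. These 42 genes lie on 31 regions, so genes that share a region are not independent cases.

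Across the genome the 2 genotypes differed in SIN3A at a small share of regions, about equally in both directions. Of 68104 members outside the interval, SIN3A was higher in Zfp131KO at 1894 (2.78%) and lower at 1951 (2.86%), or 5.65% in all, at an adjusted p under 0.05 in the authors' deposited table. The median log2 fold change of all members was 0.02, with quartiles at -0.27 and 0.29. The smallest change that was called was 0.38 in size on the log2 scale, and the median size of those called was 0.93. The deposited files give no value per region and library, so no value per library is shown. Regions often overlap their neighbour (30287 members do), and the 68104 members form 37817 separate stretches. Taking 1 region for each stretch, 1153 were higher and 1120 lower.

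**Figure D1:**
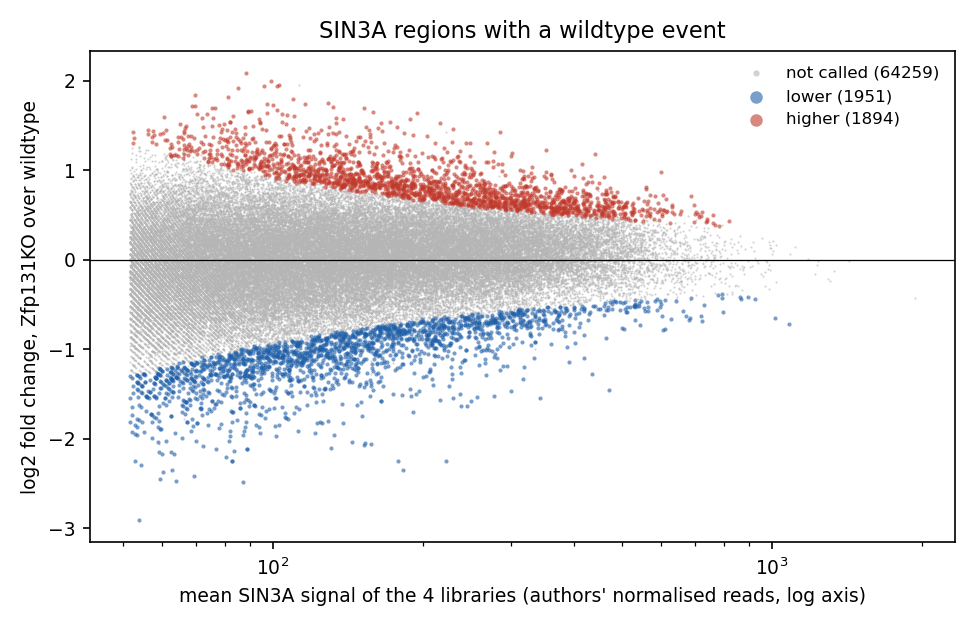
Each point is 1 of 68104 SIN3A regions, with the mean normalised signal of the 4 libraries on a log axis and the log2 fold change in the authors' deposited table. The 1894 regions higher in Zfp131KO and the 1951 lower ones lie at low and high signal, some of them under 60, and the changes needed for a call narrow as the signal rises.

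Regions with strong signal tended up and weak ones down. In the fifth of members with the lowest mean signal (median 61.5 normalised reads) SIN3A was higher at 64 and lower at 272. In the fifth with the highest (median 320.9) it was higher at 752 and lower at 382. Members entered by a wildtype event alone, and the part of that rule in these counts was not tested.

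Promoters and other sites went different ways. Within 1 kb of the start of a protein-coding gene SIN3A was higher at 1147 of 30481 regions (3.76%) and lower at 434 (1.42%). Inside genes but farther from a start, it was higher at 620 and lower at 1016 of 24960 regions (2.48% and 4.07%), and outside genes it was higher at 127 and lower at 501 of 12663 (1.00% and 3.96%). The median signal was 180.2, 98.1 and 90.9 normalised reads in the 3 classes. Taking for each gene the region with the most signal within 1 kb of a start gave 10435 promoter genes on 9614 regions. SIN3A was higher at 572 of them (5.48%) and lower at 150 (1.44%), 6.92% in all, and the median log2 fold change was 0.15.

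Binding of ZFP131 and ZBTB11 marked out regions with different SIN3A changes. Where neither factor had an event within 500 bp, SIN3A was higher at 498 and lower at 1546 of 38699 regions (1.29% and 3.99%), with a median log2 fold change of -0.09. Where ZBTB11 alone had one, it was higher at 964 and lower at 225 of 22310 (4.32% and 1.01%), with a median of 0.14. Regions with a ZFP131 event numbered 7095, of which 432 were higher and 180 lower (6.09% and 2.54%). Most of these also held a ZBTB11 event: 409 of those 5778 were higher and 127 lower, against 23 and 53 of the 1317 with ZFP131 alone.

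The number of ZFP131 reads split the bound regions further. In 4 equal classes by reads, SIN3A was lower at 12 of 1774 regions (0.676%) in the class with fewest, at 13 and 11 in the next 2, and at 144 of 1773 (8.12%) in the class with most, above 301.5 reads. Higher regions went the other way at first, with 150 (8.46%), 133 (7.50%), 67 (3.78%) and 82 (4.62%). A class with at least 1000 reads was added after these values were seen: of its 1026 regions SIN3A was lower at 120 (11.7%) and higher at 45 (4.39%). The contrast in lower calls was also present at like signal. Within the fifth of members with the highest SIN3A signal, it was lower at 60 of 523 regions with at least 1000 ZFP131 reads (11.5%), at 218 of 3500 with neither factor (6.23%) and at 77 of 6770 with ZBTB11 alone (1.14%). The median log2 fold changes there were -0.02, -0.04 and 0.13, so by the median the strongly bound regions were not below those with neither factor.

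**Figure D2:**
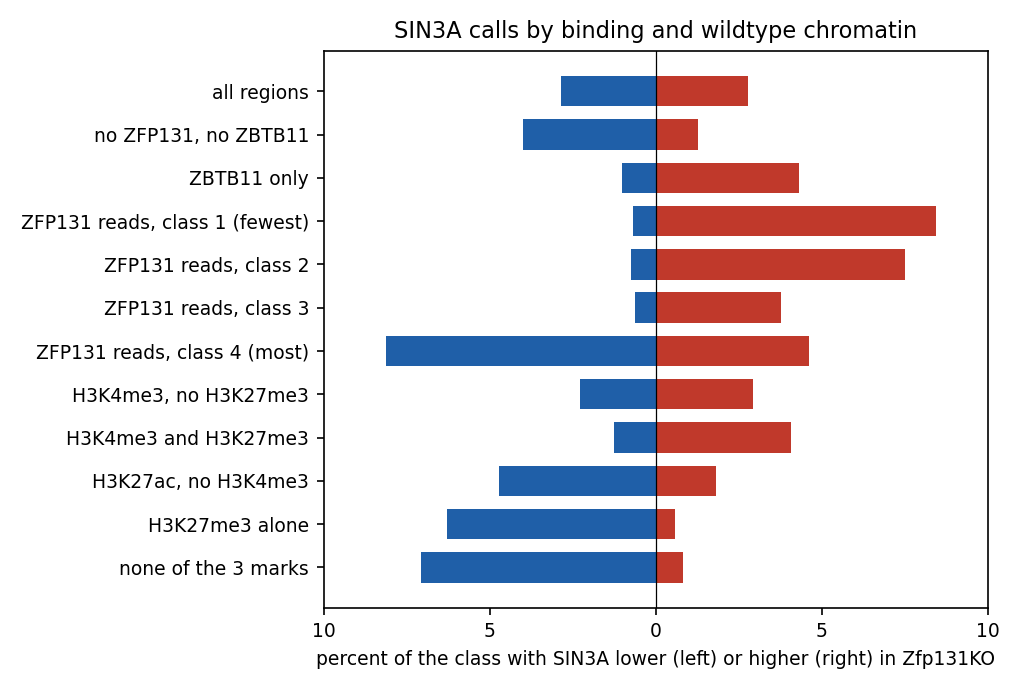
Bars give the percent of each class of regions with SIN3A lower (left, blue) or higher (right, red) in Zfp131KO; the first bar holds all 68104 members. Lower calls peak in the class with the most ZFP131 reads (8.12%) and in regions without any of the 3 marks (7.07%), and higher calls in the class with the fewest ZFP131 reads (8.46%).

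At the level of genes, 330 promoters on 273 regions had at least 1000 ZFP131 reads. SIN3A was lower at 42 of them (12.7%, on 31 regions) and higher at 16 (4.85%, on 14 regions), where 1.44% and 5.48% of all promoter genes were. The class with 300 to 1000 reads had 6 lower of 219 genes (2.74%), that with 100 to 300 had 3 of 450 (0.667%), and genes with no event had 92 of 8595 (1.07%). Most strongly bound promoters, 272 of 330, did not pass the test in either direction.

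The 12 largest falls at promoters with at least the median promoter signal (242.0 normalised reads) lay mostly at strongly bound genes: 9 of the 12 regions had over 1000 ZFP131 reads. Rmdn3 (region chr2:119156570-119157070, mm10), which encodes a mitochondrial protein that tethers mitochondria to the endoplasmic reticulum, had 2091.5 ZFP131 reads. Its SIN3A log2 fold change was -1.46 (standard error 0.21, adjusted p = 8.45e-09) in the authors' deposited table. The mean signal and fold change there correspond to about 441 normalised reads in wildtype and 159.8 in the knockout, and the wildtype event held 360.9 reads. At 3110082I17Rik the authors' deposited table gives -1.46 (standard error 0.18, adjusted p = 4.31e-12), or about 692 against 251.9 normalised reads. Emc3, a subunit of the complex that inserts membrane proteins into the endoplasmic reticulum, had -1.23 (adjusted p = 4.45e-07) in the authors' deposited table and 2330.4 ZFP131 reads.

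The shared start region of Ak8 and Spaca9 had a log2 fold change of -1.14, and that of the nuclear pore gene Nup214 had -1.12, in the authors' deposited table. Cmss1 followed with -1.10, and 2 genes of transfer RNA methylation came next, Trmt61a with -0.92 and Trmt5 (a region shared with the amino acid transporter gene Slc38a6) with -0.91, by the authors' deposited table. Brca2, a gene of homologous recombination, closed the 12 with -0.86 (adjusted p = 0.00124) in the authors' deposited table. Of these 12 regions 1, at Plekhh3, overlapped an H3K27me3 domain in wildtype. The 3 falls with no ZFP131 event were Lin28a (-1.10), Plekhh3 (-0.97) and Mapk11 (-0.87, a p38 kinase), as the authors' deposited table has them. With the region nearest to the start in place of the strongest one, Plekhh3 (-0.40) and Mapk11 (-0.30) no longer passed the test in the authors' deposited table.

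The 12 largest rises had few ZFP131 reads or none, as most promoter genes did: 8595 of 10435 had no event and 330 had at least 1000 reads. The highest among the 12 was 60.7, at Man2a1, a mannosidase of N-glycan processing. Klhl9, an adaptor of the ubiquitin ligase CUL3, had a log2 fold change of 1.31 (standard error 0.21, adjusted p = 1.15e-06) in the authors' deposited table, about 142.8 normalised reads in wildtype and 353.5 in the knockout. Usp13, a deubiquitinase, had 1.10 and Man2a1 1.09 in the authors' deposited table. Raph1, Ermp1, Exoc2 (a subunit of the exocyst) and Lrrc58 lay between 1.06 and 1.03, and Map3k4, a kinase of stress signalling, had 1.01, in the authors' deposited table. The promoter shared by Hspd1 and Hspe1, which encode the mitochondrial chaperonin and its partner, had 0.99, and that of Wdr35, a gene of ciliary transport, had 0.96, in the authors' deposited table.

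Npr1, a natriuretic peptide receptor, and Ak1, an adenylate kinase, had 1.43 and 1.23 in the authors' deposited table, the first and the third in size, but the choice of region decided these. At the region nearest to the start, the authors' deposited table has -0.033 for Npr1 and -0.0010 for Ak1. There Hspd1 and Hspe1 had 0.37 and were not called, in the authors' deposited table.

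**Figure D3:**
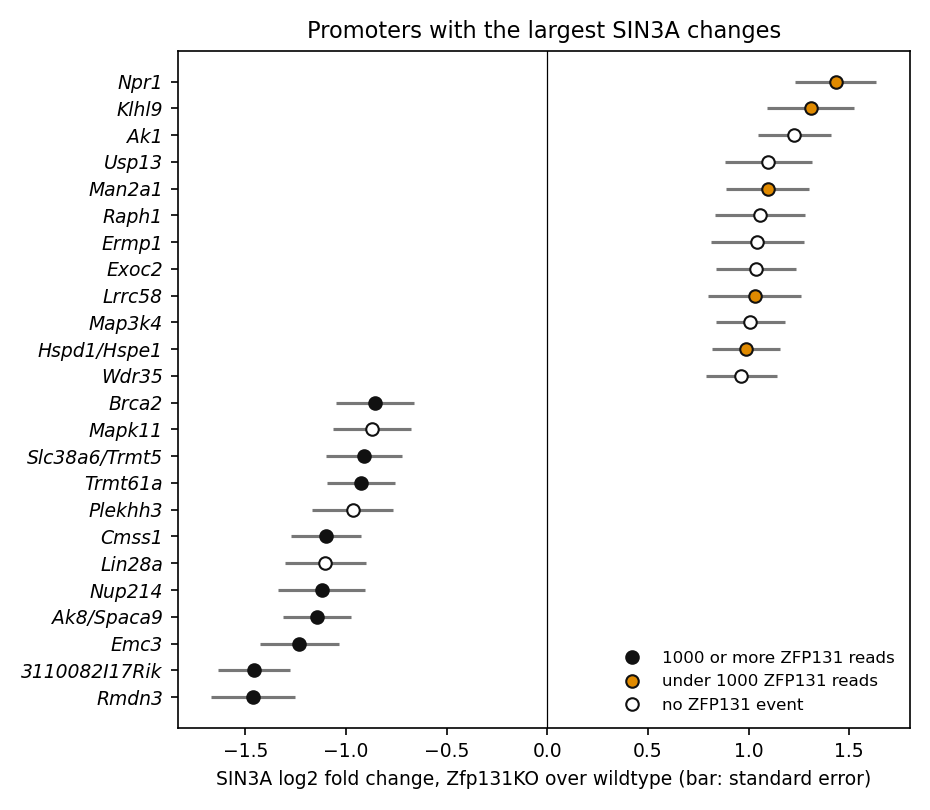
Points are SIN3A log2 fold changes with their standard errors from the authors' deposited table for the promoters with the 12 largest rises and 12 largest falls; fill gives the ZFP131 reads within 500 bp. Of the 12 falls, 9 have at least 1000 ZFP131 reads (black), and none of the 12 rises does. Of all 10435 promoter genes 330 do.

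Among the promoters with the most ZFP131 reads, SIN3A moved in no common direction. The region shared by Ddx51 and Noc4l, both genes of ribosome assembly, had the most, 3206.3, and its SIN3A log2 fold change was -0.69 (standard error 0.18, adjusted p = 0.00592) in the authors' deposited table. The region shared by Larp7, a protein of the 7SK particle that holds P-TEFb inactive, and Zgrf1 had 3036.3 reads and -0.01 in the authors' deposited table. Psme3 (-0.52), Ppp4r3a (0.20), Ccdc124 (0.30), Nup133 (-0.27), BC003965 (-0.05) and Fbxw7 (-0.03) did not pass the test in the authors' deposited table either. At the region nearest to its start Psme3 had -0.94 and passed, and with starts searched within 500 bp Fbxw7 had 0.76 and passed, in the authors' deposited table.

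Other strongly bound promoters are named after their values were seen. Below the signal limit for the 12 falls, the region of Pphln1 and Zcrb1 had -1.54 and that of Haus5, a subunit of the augmin complex of the spindle, had -1.52 in the authors' deposited table. The strongly bound promoters with higher SIN3A were led by Uqcrfs1, the Rieske subunit of respiratory complex III, with 1.21, and Bloc1s4 with 1.15 in the authors' deposited table. Nelfa, a subunit of the pausing factor NELF, had 1826.0 ZFP131 reads and a SIN3A log2 fold change of 0.72 (adjusted p = 0.00263) in the authors' deposited table.

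Among strongly bound promoters, lower active marks and new H3K27me3 domains stood at a larger share of those that lost SIN3A than of the others, though the others, being more numerous, held more of the promoters with lower marks. These marks were measured in other libraries of the same lines. Of the 42 promoter genes (on 31 regions) with at least 1000 ZFP131 reads and lower SIN3A, 1 overlapped an H3K27me3 domain in wildtype and 29 did in Zfp131KO (69.0%). Of the 272 whose SIN3A did not pass the test, 2 did in wildtype and 27 in Zfp131KO (9.93%), and of the 16 with higher SIN3A, 0 did and then 3. Over all members whose SIN3A was not called, the domains covered 16.8% in wildtype and 18.8% in Zfp131KO. H3K27ac was lower at 34 of the 40 of those 42 genes with a region in the H3K27ac table, with a median log2 fold change of -1.77, and at 81 of 269 whose SIN3A was not called, with a median of -0.43, at an adjusted p under 0.05 in the authors' deposited tables. Over all members with an H3K27ac region, 10.1% were lower and 9.94% higher (20.0% in all). H3K4me3 was lower at 36 of the 42 (median -1.03) and at 72 of the 272 (median -0.07), against 5.27% lower and 28.4% higher of the 56966 members with a region (33.7% in all). In all 3 mark tables every region that met a member overlapped a domain of that mark in at least 1 genotype. Nearly all strongly bound promoters had H3K4me3 and H3K27ac regions, but an H3K27me3 region that gained a domain enters because it did, so H3K27me3 fold changes are not counted here.

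Single genes show the same combination. At Rmdn3 the H3K27ac log2 fold change was -2.79 (adjusted p = 2.68e-09) and that of H3K4me3 -1.51 in the authors' deposited tables. At Brca2 they were -1.66 (adjusted p = 0.00027) and -1.33, and at Nup214 -2.07 and -2.37, in the authors' deposited tables. An H3K27me3 domain lay over all 3 promoters in Zfp131KO and over none in wildtype. Emc3 and Trmt5 differ: they lost SIN3A, with H3K27ac log2 fold changes of -0.83 and -2.34 in the authors' deposited tables, and had no H3K27me3 domain in either genotype. Nup133 is the reverse case, with an H3K27me3 domain in Zfp131KO, H3K27ac at -1.85 and SIN3A at -0.27, not called, in the authors' deposited tables.

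**Figure D4:**
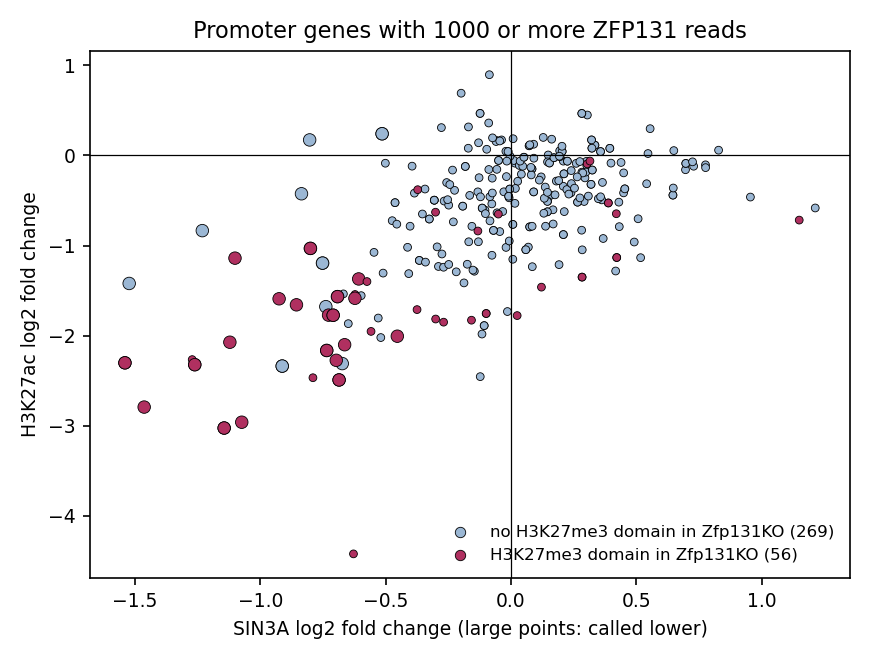
Each point is 1 of the 325 promoter genes with at least 1000 ZFP131 reads and an H3K27ac region, with the log2 fold changes of SIN3A and H3K27ac from the authors' deposited tables; large points are those with SIN3A called lower. Many promoters with an H3K27me3 domain in Zfp131KO lie at the lower left, where both readouts are lower, and many others lie where SIN3A is not called lower. Among all 330 strongly bound promoter genes, such a domain lay at 29 with lower SIN3A, 27 not called and 3 with higher SIN3A.

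Over all members, domains of the marks differed with the SIN3A call; these counts need no region in a mark table. At the 1951 regions with lower SIN3A, H3K27ac domains covered 815 in wildtype and 609 in Zfp131KO (41.8% and 31.2%), and H3K4me3 domains 1148 and 954 (58.8% and 48.9%). At the 1894 with higher SIN3A, H3K27ac domains covered 76.2% and 79.7%, and H3K4me3 domains 92.6% and 96.0%. Where SIN3A was not called, they covered 58.8% and 54.4% for H3K27ac and 81.8% and 79.6% for H3K4me3. Of the regions with an H3K27ac domain in wildtype, none was left in Zfp131KO at 324 of 815 with lower SIN3A (39.8%), at 61 of 1444 with higher SIN3A (4.22%) and at 18.0% of those not called. An H3K27me3 domain was present in Zfp131KO but not in wildtype at 139 regions with lower SIN3A (7.12%), 68 with higher SIN3A (3.59%) and 3.87% of those not called.

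Chromatin and factors in wildtype also went with the change. Regions with both H3K4me3 and H3K27me3, the pair known from poised developmental genes, were higher at 448 and lower at 140 of 11027 (4.06% and 1.27%, median 0.13). Regions with H3K4me3 alone of these 2 were higher at 1306 and lower at 1008 of 44449. Those with H3K27ac without H3K4me3 were higher at 67 and lower at 174 of 3691, and those with none of the 3 marks at 71 and 607 of 8587 (0.827% and 7.07%, median -0.26). The last class had the weaker signal, a median of 72.3 normalised reads against 158.7 with H3K4me3 alone. SETD1A, an H3K4 methyltransferase, had a wildtype event at 36504 members, of which 1465 were higher and 652 lower, and none at 31600, of which 429 were higher and 1299 lower. NELF, which holds RNA polymerase II just past the start, had one at 94.7% of higher regions, 68.9% of lower ones and 83.1% of those not called. CHD4, the remodelling ATPase of the NuRD complex, had one at 9516 members, of which 400 were higher and 136 lower.

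Away from starts the largest changes exceeded those at promoters, at weaker signal. The 4 largest falls over 1 kb from any start lay 50.3 kb from the start of Ahi1 (chr10:21090873-21091373), inside Kcnh2 (chr5:24321801-24322301), 146.6 kb from Fam209 (chr2:172618921-172619421) and inside Foxp4 (chr17:47921220-47921720), with log2 fold changes of -2.91, -2.48, -2.47 and -2.45 in the authors' deposited table. Kcnh2 encodes a potassium channel of the heart and Foxp4 a forkhead factor. At the first, the authors' deposited table corresponds to about 94.9 normalised reads in wildtype and 12.7 in the knockout. The 4 largest rises lay inside Lpp (chr16:24597184-24597684), Ppl (chr16:5113452-5113952), Jhy (chr9:40953390-40953890) and Camsap3 (chr8:3598994-3599513), at 2.09, 2.00, 1.95 and 1.95 in the authors' deposited table. None of these 8 regions had a ZFP131 or ZBTB11 event within 500 bp.

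In groups of genes, core and naive pluripotency genes had lower SIN3A more often than higher. Of 18 of 30 listed genes with a promoter region, 3 fell and none rose (6 and 1 at an unadjusted p under 0.05 from DESeq2, or 38.9% in all against 23.8% of all promoter genes), and the median log2 fold change was -0.15, against 0.15 for all promoter genes, of which 1.44% fell. Lin28a, an RNA-binding protein that blocks let-7 maturation, had about 362.7 normalised reads in wildtype and 169.0 in the knockout, a log2 fold change of -1.10 (adjusted p = 1.93e-05) in the authors' deposited table. Nanog, a homeobox factor of naive pluripotency, had -0.67 (adjusted p = 0.00526), and Tdgf1, the coreceptor of NODAL, had -0.57 (adjusted p = 0.0469), in the authors' deposited table. None of the 3 had a ZFP131 event. H3K27ac moved apart at them: it was lower at Lin28a (-2.31, adjusted p = 8.93e-10) and higher at Nanog (1.01, adjusted p = 0.00873) in the authors' deposited table, and at Tdgf1 it was 0.57 (adjusted p = 0.0646). Tdgf1 did not pass at the region nearest to its start (-0.47 in the authors' deposited table).

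Imprinted genes, which are expressed from 1 parental copy, gave the largest share of rises, on few genes. Of 11 of 24 listed genes with a promoter region, 5 on 4 regions rose and 1 fell, with a median of 0.72; of all promoter genes 5.48% rose and 1.44% fell, with a median of 0.15. Plagl1, a zinc finger gene that restrains growth, had 1.50 (adjusted p = 0.000951), the region shared by Peg3 and Usp29 0.96, Snrpn 0.83 and Zrsr1 0.72 in the authors' deposited table. Gnas, which encodes the stimulatory G protein alpha subunit, fell, at -1.51 (adjusted p = 1.12e-06) in the authors' deposited table, with 1127.0 ZFP131 reads near its region. The windows mattered here: with starts searched within 2 kb 3 of the genes rose, since Peg3 (0.34) and Snrpn (0.52) then took other regions of the authors' deposited table, and at the region nearest to its start Gnas had -0.17 and was not called. The reads do not tell the parental copies apart.

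Genes of the SIN3 complex itself were called at a share of 5.88%, near the 6.92% of all promoter genes. At an unadjusted p under 0.05 from DESeq2 the shares were 23.5% and 23.8%. Of 17 of 23 listed subunit genes with a promoter region 1 fell, Phf12, at -0.69 in the authors' deposited table, but the region nearest to its start had 0.31 there, as did the search within 500 bp. Sin3a had 0.03 (adjusted p = 0.933), Zbtb11 had 0.45 (adjusted p = 0.0986) and Zfp131 had -0.02 (adjusted p = 0.981) in the authors' deposited table. A SIN3A level at the start of Zfp131 does not check the deletion, which these files do not show. Of 13 factors known to bring SIN3A to DNA, 3 rose: E2f6 (1.11), Mxd1 (0.83) and Foxk2 (0.71) in the authors' deposited table, and Foxk2 had 0.20 at the region nearest to its start and was not called. The list's median was 0.27, and 5.48% of all promoter genes rose, with a median of 0.15.

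Immediate early genes, which answer growth signals within minutes, had 3 falls among 17 (17.6%, where 1.44% of all promoter genes fell): Jund (-0.73), Junb (-0.48) and Zfp36 (-0.45) in the authors' deposited table. At the region nearest to the start Jund (-0.46) and Zfp36 (-0.44) were not called in the authors' deposited table. Of 13 p53 targets 2 rose, Phlda3 (0.93) and the cyclin G gene Ccng1 (0.56) in the authors' deposited table, and none fell; 5.48% of all promoter genes rose. Of 68 genes of the mitochondrial ribosome 5 rose (Mrpl48, Mrpl17, Mrpl21, Mrps18c and Mrps22, between 0.51 and 0.85 in the authors' deposited table) and none fell, 7.35% against 5.48% of all promoter genes; at an unadjusted p under 0.05 from DESeq2 they were 16 and 2, or 26.5% in all against 23.8% of all promoter genes. Of the 5, Mrpl48, Mrpl17 and Mrps18c were not called at the region nearest to the start. The cytosolic ribosome had 2 rises (Rps19, Rpsa) and 2 falls (Rpl24 and Rpl35a) among 56, or 7.14% called, near the 6.92% of all promoter genes. At an unadjusted p under 0.05 from DESeq2, 11 were higher and 3 lower, 25% in all against 23.8%. Single rises stood among the NuRD subunits (Mta2, 1 of 10, not called at the nearest region), pausing and elongation factors (Nelfa, 1 of 18) and mesoderm and endoderm genes (Hhex, 1 of 18), and 1 fall among neural genes (Tubb3, 1 of 17). These rises are 10%, 5.56% and 5.56% of their lists, where 5.48% of all promoter genes rose. The fall is 5.88%, where 1.44% fell, and each of these shares rests on 1 gene. None passed among 16 polycomb genes, 37 genes of respiratory complex I, 16 Hox genes, 10 housekeeping genes, 8 trophectoderm, 6 primitive endoderm, 6 formative or primed and 2 fibroblast genes. At an unadjusted p under 0.05 these 8 lists had 1, 3, 2, 3, 2, 3, 1 and 0 genes, where 23.8% of all promoter genes passed.

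On chromosome 10 from 58 to 68 Mb SIN3A was shifted up along the interval, with medians of 0.40 to 0.93 in windows of 1 Mb. It was called higher at 99 of 295 regions (33.6%) and lower at none (173 and 1 at an unadjusted p under 0.05 from DESeq2), with a median log2 fold change of 0.61, where 2.78% of the other members were higher. Of 56 promoter genes 34 were higher and none lower (0 lower also at an unadjusted p under 0.05), with a median of 0.79. Zfp365 had 1.70, Ddit4, an inhibitor of mTORC1, 1.62, and Jmjd1c, a histone demethylase of the JmjC family, 1.56 (adjusted p = 4.5e-07) in the authors' deposited table. P4ha1, a prolyl hydroxylase of collagen, had 1.26, Eif4ebp2, a repressor of translation initiation, 1.18, and the nucleoporin gene Ranbp2 1.08 in the authors' deposited table. The helicase gene Ddx21 and the chaperone gene Dnajb12 had 0.85 and 0.82 in the authors' deposited table.

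The interval was high in other readouts of the same line and in the other knockout. Its median log2 fold change in Zfp131KO was 1.00 for CHD4, 0.55 for H3K4me3, 0.99 for H3K27ac and 1.09 for H3K27me3, over all table regions of each. For SIN3A in Zbtb11KO it was 0.54. From 50 to 58 Mb, outside the interval as defined, 36 members had a median of 0.94 and 17 were called higher; these 36 are counted among the 68104. H3K27me3 had a median of -0.04 over its 83 table regions there. Among 757 bins of 2 Mb with at least 20 members, 9 had a median of at least 0.5, 5 of them on chromosome 10, and 1 had a median of at most -0.5. That bin, on chromosome 1 from 76 to 78 Mb, had 22 members with a median of -0.82, of which 6 were lower, and its median for SIN3A in Zbtb11KO was -0.59. The number of copies of these stretches in each line was not measured here.

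**Figure D5:**
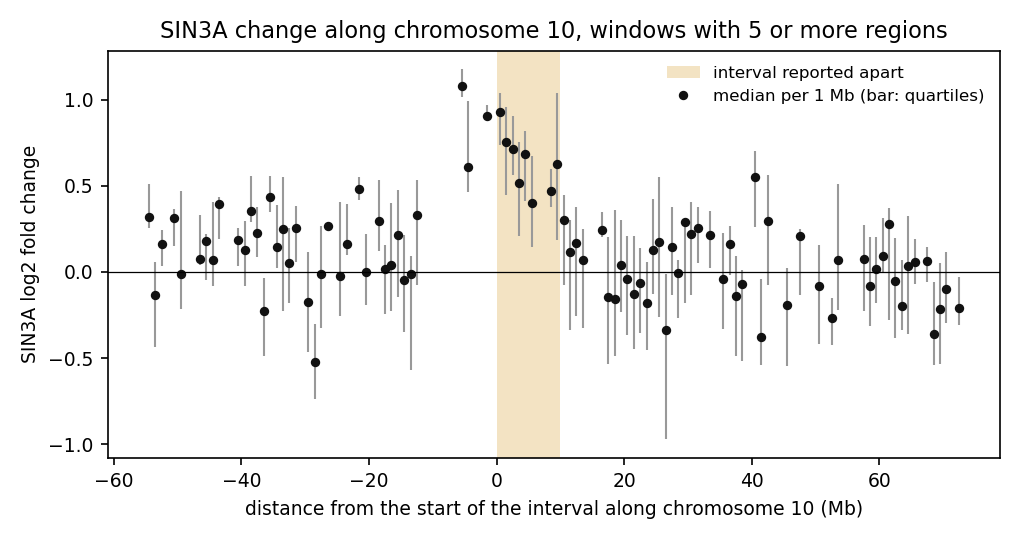
Points are medians of the SIN3A log2 fold change in windows of 1 Mb along chromosome 10, and bars their quartiles; the shaded band is the interval of 58 to 68 Mb. Medians within the band all lie above 0, those from 50 to 58 Mb lie between 0.61 and 1.08, and those from 68 to 72 Mb between 0.07 and 0.30.

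The SIN3A table for Zbtb11KO uses the same 2 wildtype libraries, so the tables share their control and are only set side by side. At Rmdn3 the SIN3A log2 fold change was -1.46 in Zfp131KO and -0.02 in Zbtb11KO, and at Brca2 -0.86 and -0.02, in the authors' deposited tables. At Nup214 the authors' deposited tables have -1.12 and 0.43, and at Trmt61a -0.92 and 0.46. In Zbtb11KO Trmt61a passed the test as higher, and Plekhh3 (-0.67) passed as lower, in the authors' deposited table. The remaining falls did not pass in Zbtb11KO. They had 0.20 (3110082I17Rik), 0.25 (Emc3), -0.28 (Ak8 and Spaca9), 0.15 (Cmss1), -0.02 (Trmt5) and -0.30 (Mapk11) in the authors' deposited table. Lin28a had -1.10 and -1.14 in the authors' deposited tables, with adjusted p of 1.93e-05 and 9.68e-06. Plagl1 had 1.50 and 1.91, Jund -0.73 and -0.55, and Exoc2 1.04 and 0.87 in the authors' deposited tables. The 12 largest promoter rises were picked as high ratios over these same wildtype libraries, which by itself favours values above 0 in Zbtb11KO. Their values there ran from 0.29 at Hspd1 to 0.87 at Exoc2, and nothing is concluded from their common sign. Of these rises Exoc2, Ak1, Map3k4 and Wdr35 passed the test in Zbtb11KO and the others did not. Over all 120643 regions with a wildtype event in the Zbtb11KO table, 2.54% were higher. The share of promoter genes was not counted there. Other imprinted genes had 0.96 and 0.80 (Peg3), 0.96 and 1.07 (Usp29), 0.83 and 1.08 (Snrpn), 0.72 and 0.32 (Zrsr1) and -1.51 and -0.53 (Gnas).

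Depth is known for the wildtype only: its 2 SIN3A libraries held 16.8 M and 16.5 M reads (M being 1e+06), with 32.6% and 34% of them in events, against 45.3 M control reads. Of 83134 wildtype events 67763 (81.5%) lay in a region of the table, and those outside were weaker, with a median of 47.3 reads against 105.6. The depth of the Zfp131KO SIN3A libraries is not given in the sources used here. By H3K27ac, marker genes matched the label of embryonic stem cells: 7 of 8 markers had it in both genotypes. All 8 had H3K4me3 in both genotypes, and 2 had H3K27me3 in wildtype and 3 in Zfp131KO. H3K4me3 does not set the cell types apart. It also lay at 2 of 6 primitive endoderm, 3 of 5 trophectoderm, 4 of 5 neural and 3 of 5 fibroblast markers in both genotypes. Of 6 primitive endoderm, 5 trophectoderm, 5 neural and 5 fibroblast markers, 1, 0, 1 and 0 had H3K27ac in wildtype and 0, 1, 1 and 0 in Zfp131KO.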

How the data were processed

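ChIP-seq of SIN3A in wildtype and Zfp131KO mouse embryonic stem cells was read from deposited tables, 2 libraries per genotype. Per the submitters' processing notes, Bowtie 1.0.1, bedtools, DESeq2 1.28.1 and build mm10 were used; how each was set is not given in the sources used here. The authors deposited event lists with reads per event (signal), log2 fold over control and a log2 p-value (score), per the file headers, and domain lists with reads (signal) and p-values. The authors' deposited tables give per region a mean signal, the log2 fold change between genotypes, its error, a Wald score and p-values, raw and adjusted. These came from the libraries of both genotypes; the files hold no counts per library, so the planned fit on counts could not be run and the authors' calls at an adjusted p under 0.05 were used. The deposited adjusted p-values equal Benjamini-Hochberg values over the whole table.

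Computed here, with Python 3.11.15, numpy 2.4.6 and pandas 2.3.3: regions holding a wildtype event; events within 500 bp; domains overlapping by 1 base; and, per gene, the region with most signal within 1 kb of a RefSeq start (GRCm38.p6, the same assembly as mm10). The sign was checked against wildtype event reads, which were low relative to the mean signal at regions called higher (median log2 ratio -0.61) and high at those called lower (0.35). Levels per genotype were worked out from mean signal and fold change, giving both genotypes equal weight. Functions were tested on simulated data. The members and the 22 gene lists were chosen with earlier results of these data known. Of genes without a start in the reference or a region nothing is said; the 7 two-cell-like genes with a start had no region. Named genes are the 12 largest rises and falls among called promoters with at least the median promoter signal, up to 4 per list by adjusted p, called list members, 8 in the interval, 8 promoter regions with most ZFP131 reads, Sin3a, Zfp131 and Zbtb11, and 4 distal regions per direction. Alternatives were a stricter p, a minimum fold, centring, a signal filter, stricter events, other windows and regions per gene.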

Additional observations from a re-analysis of the deposited data

How the results depend on the processing

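No paired analysis was possible because the deposited tables hold no value per region and library, and for the same reason no library could be left out in turn. Of 91 alternative counts 73 stayed within 1.5 times the count reported. At an adjusted p under 0.01, 687 regions were higher and 782 lower, 213 genes higher and 69 lower, 167 regions with a ZFP131 event higher and 101 lower, 76 with at least 1000 ZFP131 reads lower, 621 with neither factor lower, 155 with H3K4me3 and H3K27me3 higher and 254 with none of the 3 marks lower; a stricter threshold can only lower counts. Keeping regions with at least the median signal left 1067 lower, 742 of them with neither factor and 171 with none of the 3 marks. Stricter wildtype events left 384 lower with none of the 3 marks. With 1 region per stretch 1153 were higher and 1120 lower. Counting ZFP131 events only inside a region left 76 lower in the class with at least 1000 reads. Searching 2 kb around starts gave 3 imprinted genes higher. Centring on the members' median of 0.02 gave 1678 higher and 2152 lower, so the share of higher calls went from 49.3% to 43.8%. Of 120 named genes, 4 changed sign under a setting with a call on either side: Phf12 (0.31 within 500 bp and at the nearest region), Fbxw7 (0.76 within 500 bp), and, at the nearest region, Npr1 (-0.033) and Ak1 (-0.0010). Weak regions limit what can be called: 2.47% of the fifth with least signal passed, against 8.33% of the fifth with most.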
